A study of Mus musculus with 6 samples.

Results

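Genes for 30 enzymes, readers and scaffolds of histone acetylation were followed in whole sciatic nerve of mice at postnatal day 3. The members were listed by name: 18 deacetylases, 8 acetyltransferases, 2 bromodomain readers and 2 co-repressor scaffolds. All 30 were found among the 54838 genes of the deposited count table, and all 30 passed the filter on low counts. The study compared 3 libraries labelled WT with 3 libraries from CnpCre Actl6afl/fl mice (cKO here), all of strain C57 Bl. Cnp is active in myelinating glia, and the Cre carried under its name acts on a floxed Actl6a gene, which encodes an actin-related subunit of BAF and other chromatin remodelling complexes. The labels do not say whether the WT mice carry Cre or floxed alleles, or whether a library holds 1 animal or a pool.

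Acetyltransferases place acetyl groups on histone lysines from acetyl-CoA, bromodomain proteins bind the acetylated lysines, and deacetylases remove the groups. Class I deacetylases work in nuclear co-repressor complexes built on scaffolds such as NCoR1 and SIN3A. Class IIa deacetylases have little activity of their own, shuttle between nucleus and cytoplasm, and bind MEF2 transcription factors, while sirtuins need NAD. In Schwann cells, the glia of peripheral nerve, HDAC1 and HDAC2 are known to be needed for myelination, HDAC3 is known as a brake on myelin growth, and HDAC4 is known to repress the injury factor Jun with NCoR1.

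Libraries held 31404107 to 36760296 counts. Actl6a read 48.6, 53.3 and 46.2 CPM (count per 1e6 counts, TMM-scaled) in the WT libraries, against 42.4, 47.6 and 41.5 in the cKO libraries, a log2 fold change of -0.17 (95% interval -0.40 to 0.05, edgeR adjusted p = 0.243). The groups overlapped, the gene was counted over all its exons, and the tissue holds many cells outside the Cre lineage, so this count checks the labels only weakly. Schwann cell markers were present in every library: Sox10, the transcription factor gene that defines the lineage, read 239 to 277 CPM in WT and 85.7 to 164 CPM in cKO. The library cKO replicate 2 stood apart, with 9 skeletal muscle markers summing to 60540 CPM against 3495 to 5235 CPM in the other 5.

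Of the 30 members, 3 were higher and 6 lower in cKO nerves, where a call means a Benjamini-Hochberg adjusted p below 0.05 over all 18775 genes tested. The 3 that rose were the class IIa deacetylase genes Hdac5, Hdac7 and Hdac9. The 6 that fell were the sirtuin genes Sirt2 and Sirt3 and the acetyltransferase genes Kat2a, Kat2b, Crebbp and Kat7. Over all genes tested, 18.8% were called, 8.55% higher and 10.3% lower, and the members' share was not tested against this background. The median log2 fold change was -0.09 over the members and 0.04 over all genes. The groups did not overlap for 12 members, 3 with all cKO libraries above and 9 with all below, against 42.7% of all genes (21.0% above, 21.7% below). Because nerves were sequenced whole, fewer cells of a type and less RNA per cell cannot be told apart in any of these values.

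**Figure D1:**
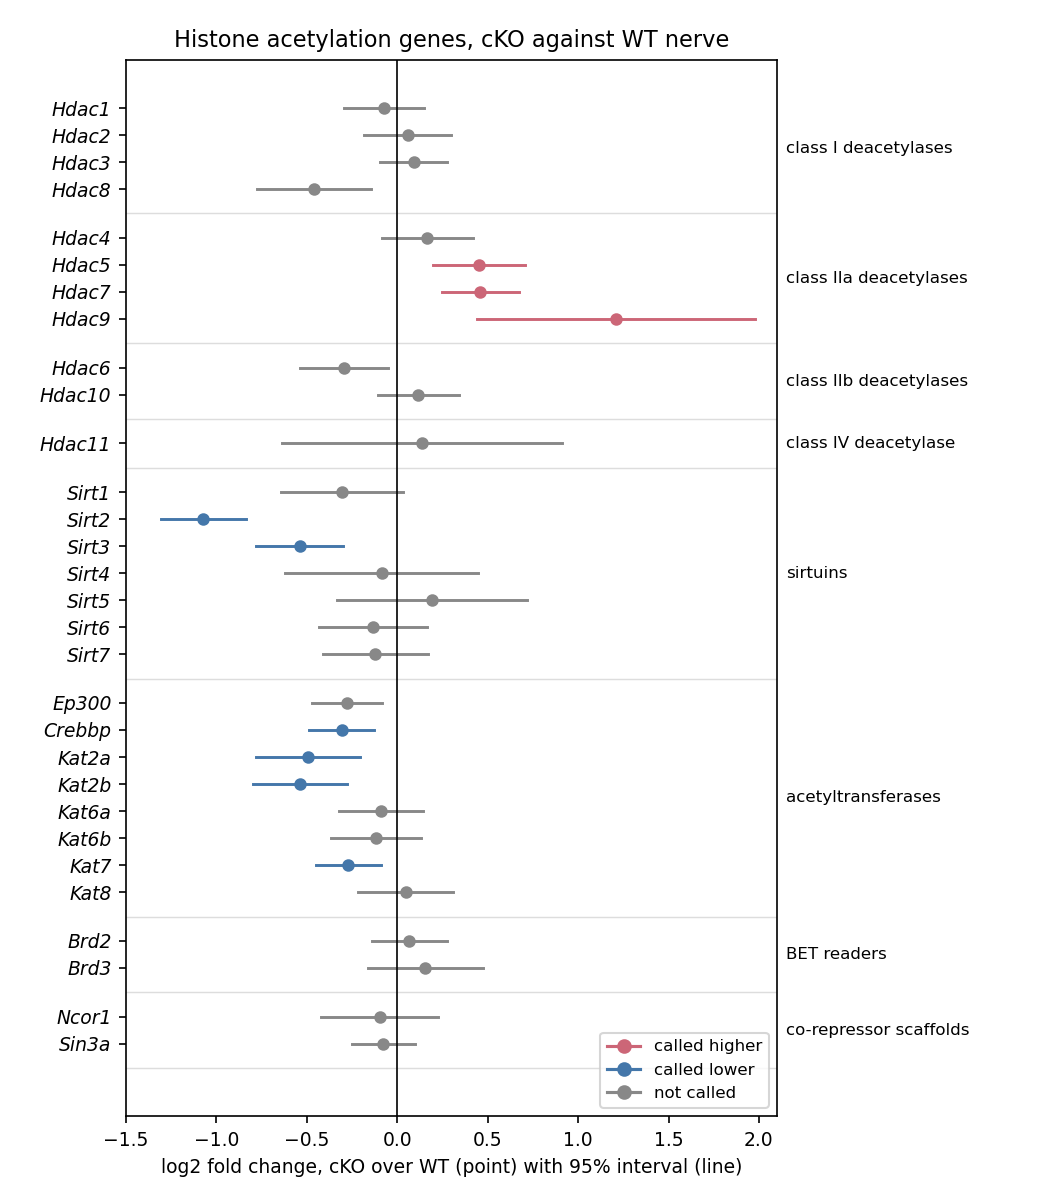
Log2 fold change of each member, cKO over WT (point), with its 95% interval (line), grouped by class; red marks genes called higher, blue genes called lower and grey genes not called. Sirt2 lies farthest to the left at -1.07 and Hdac9 farthest to the right at 1.21, and most other points lie within 0.5 of zero.

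The calls were recomputed with single libraries left out. Each library was left out in turn, and Sirt2 kept its call in the 6 resulting fits. The other 8 calls were all lost without WT replicate 1, without WT replicate 2 and without WT replicate 3, at adjusted p from 0.0598 to 0.167 (edgeR). Calls over all genes fell as well, from 3534 to 1278, 1305 and 1246. Each of the 9 genes kept its direction in every one of these fits. Without cKO replicate 1, 5 of the 9 calls held (Sirt2, Sirt3, Kat2a, Kat2b and Hdac7), while 3117 genes (16.3%) were called over all genes. Without cKO replicate 3, 3 held (Sirt2, Hdac5 and Hdac9), while 2001 genes (10.5%) were called over all genes. Without cKO replicate 2, the muscle-rich library, all 9 held and 5 more were made, Hdac4 higher and Hdac6, Hdac8, Ep300 and Ncor1 lower, while 35.4% of all genes were called.

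Levels can be compared between genes only per length, here as CPM per kilobase of exon. In WT nerves Sirt2 had the highest level of the 30 at 56.0 ± 1.996 CPM per kilobase (SD, n = 3), and Hdac2 followed at 45.6 ± 4.42. Brd2 (22.6 ± 0.531) and Hdac3 (21.1 ± 0.871) came next on the same scale. The lowest levels were those of Sirt5 at 1.05 ± 0.0614 and Hdac9 at 0.402 ± 0.0515 CPM per kilobase. Among acetyltransferases the order in WT ran from Kat7 (17.0 ± 0.312) through Kat2b (14.9 ± 0.612) and Kat2a (13.1 ± 0.199) to Kat6b (2.91 ± 0.212), with Ep300 (5.66 ± 0.409) and Crebbp (5.17 ± 0.248) overlapping within their SD. In cKO nerves Hdac2 stood first at 47.4 ± 2.34 and Sirt2 second at 26.6 ± 2.35 CPM per kilobase.

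**Figure D2:**
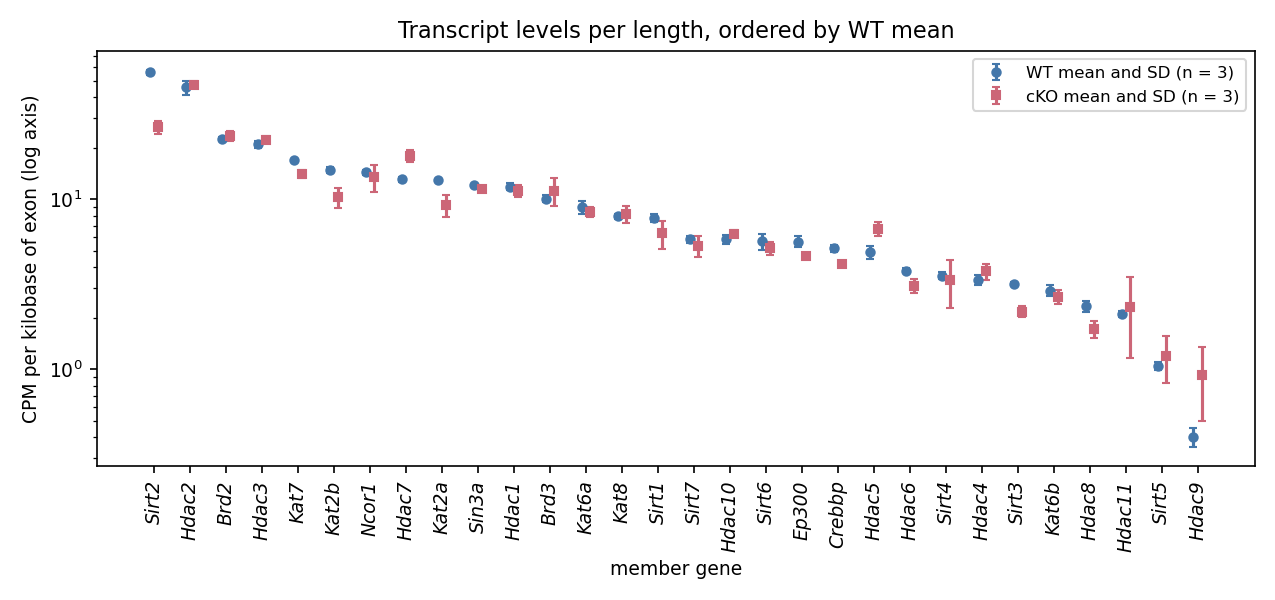
Level of each member in CPM per kilobase of exon on a log axis, WT mean and SD in blue and cKO mean and SD in red (n = 3 each), ordered by the WT mean. Sirt2 falls from first to second place, and the wide cKO bars at Hdac11, Sirt4, Sirt5 and Hdac9 belong to genes whose value in cKO replicate 2 lies above all other libraries.

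Of the 4 class I deacetylase genes, none was called, at a class median log2 fold change of -0.01. Hdac1, Hdac2 and Hdac3, the catalytic subunits of the nuclear co-repressor complexes, had log2 fold changes of -0.07 (95% interval -0.29 to 0.15), 0.06 (-0.18 to 0.30) and 0.09 (-0.10 to 0.28). These intervals leave room for modest changes either way. Hdac1 is uncertain, since 35.5% of its 50-base transcript words also occur in Gm10093 or another gene. Hdac8, an X-linked class I enzyme that also deacetylates cohesin, read 10.7, 12.4 and 11.3 CPM in the WT libraries, against 7.72, 7.82 and 9.43 in the cKO libraries. All 3 cKO libraries lay below the WT libraries, with a change of -0.46 (log2; edgeR adjusted p = 0.0550), just above the threshold. It was called without cKO replicate 2 (-0.42, edgeR adjusted p = 0.0263) and with DESeq2 (adjusted p = 0.0271).

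The class IIa genes were the members that rose: 3 of 4 were called higher and 0 lower, with a class median of 0.46. Over all genes tested 8.55% were called higher and 10.3% lower, and the class count was not tested against these shares. None of the 3 calls held when any 1 WT library was left out. The summed level of the class was 21.1 to 22.5 CPM per kilobase in WT and 28.3 to 30.7 in cKO libraries. Hdac7, a class IIa gene known for its role in blood vessel endothelium (ENSMUSG00000022475, GRCm38 chromosome 15, 97792664 to 97844502), read 91.4, 85.7 and 88.6 CPM in the WT libraries, against 128, 109.9 and 127 in the cKO libraries. Every cKO library lay above every WT library, and the change was 1.38-fold (log2 0.46, SE 0.09, edgeR adjusted p = 0.0158). Of 6 endothelial markers 1, Tek, was called higher. Their sum was 456 to 487 CPM in WT and 553 to 643 CPM in cKO, with none at 0. Markers of other cells also rose: 5 of 7 macrophage markers (sum 410 to 466 CPM in WT and 677 to 858 in cKO), 4 of 4 mast cell markers (163 to 206 and 274 to 359) and 4 of 7 erythroid markers (2725 to 3940 and 6745 to 21868). The part of any of these cells in the class IIa values was not tested. Hdac5 (ENSMUSG00000008855, chromosome 11, 102194432 to 102230166) read 45.3, 38.7 and 45.3 CPM in the WT libraries, against 60.3, 63.9 and 52.9 in the cKO libraries. Again the groups did not overlap, at 1.37-fold (log2 0.45, SE 0.11, edgeR adjusted p = 0.0301).

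Hdac9, a MEF2-binding class IIa gene known from muscle (ENSMUSG00000004698, chromosome 12, 34047580 to 34917095), read 6.68, 5.85 and 5.17 CPM in the WT libraries, against 10.8, 20.9 and 9.26 in the cKO libraries. All cKO libraries lay above the WT libraries, but cKO replicate 2 read 2.09 times the mean of the other cKO libraries. The log2 fold change was 1.21 (SE 0.32, edgeR adjusted p = 0.0449) with all libraries and 0.76 (edgeR adjusted p = 0.0013) without cKO replicate 2. In cKO replicates 1 and 3 the sum of the 9 muscle markers was 3772 and 5042 CPM, within the WT range of 3495 to 5235, though Tnnt3 and Myog lay above every WT library in both. With no low-count filter the call of Hdac9 was lost. Hdac4, the class IIa member tied to Jun repression in Schwann cells, read 53.5, 56.5 and 49.4 CPM in the WT libraries, against 64.5, 52.4 and 62.1 in the cKO libraries. Here the groups overlapped through cKO replicate 2, at 0.17 on the log2 scale (edgeR adjusted p = 0.301), and 0.25 (edgeR adjusted p = 0.0326) without that library. Of the exon bases of Hdac4, 22.4% also lie in the antisense gene Gm26720, and counting did not use strand.

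Promoter windows are shown for the 3 class IIa genes called higher, because these members moved in the same direction. They are the windows that hold a motif match and no annotated exon. Each window is the 250 bases before a RefSeq start (build GRCm38.p6), on the minus strand, written 5′ to 3′. Capitals mark matches, on either strand, to AP-1 (TGANTCA), to the SOX core (ACAAAG), to the MEF2 motif or to CCAAT.
Hdac5, chr11:102230173-102230422: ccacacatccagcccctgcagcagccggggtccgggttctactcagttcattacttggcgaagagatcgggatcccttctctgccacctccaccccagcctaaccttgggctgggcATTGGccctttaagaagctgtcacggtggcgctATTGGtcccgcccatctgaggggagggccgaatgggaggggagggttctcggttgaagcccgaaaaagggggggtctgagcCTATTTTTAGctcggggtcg
Hdac7, chr15:97844503-97844752: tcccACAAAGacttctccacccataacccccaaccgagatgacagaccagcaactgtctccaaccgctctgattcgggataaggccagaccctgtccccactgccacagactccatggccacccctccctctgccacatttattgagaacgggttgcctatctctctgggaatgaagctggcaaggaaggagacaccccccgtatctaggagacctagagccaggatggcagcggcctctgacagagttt
Hdac9, outer start, chr12:34917096-34917345: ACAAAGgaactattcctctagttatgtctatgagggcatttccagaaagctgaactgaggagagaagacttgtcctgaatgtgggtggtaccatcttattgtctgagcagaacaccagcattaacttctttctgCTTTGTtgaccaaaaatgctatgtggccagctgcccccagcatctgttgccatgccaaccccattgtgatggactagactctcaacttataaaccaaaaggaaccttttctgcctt
Hdac9, inner start, chr12:34528890-34529139: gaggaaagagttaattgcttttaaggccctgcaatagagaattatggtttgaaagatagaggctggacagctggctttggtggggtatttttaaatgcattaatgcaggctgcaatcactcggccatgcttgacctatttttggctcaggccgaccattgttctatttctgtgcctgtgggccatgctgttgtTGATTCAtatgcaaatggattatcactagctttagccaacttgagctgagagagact
The Hdac5 window holds 1 MEF2 match close to the start and 2 CCAAT boxes, both on the opposite strand. The Hdac7 window shown holds 1 SOX match, and the 3 other Hdac7 windows, not shown, hold no match to any of the motifs. The outer Hdac9 window holds 2 SOX matches and the inner one 1 AP-1 match. Over 32841 promoter windows of this length, a MEF2 match occurred in 0.509%, a CCAAT box in 33.9%, a SOX match in 16.5% and an AP-1 match in 6.75%. The Hdac5 window was the 1 of 39 windows of the members with a MEF2 match. Over those 39 windows a CCAAT box occurred in 35.9%, a SOX match in 15.4% and an AP-1 match in 7.69%. All these matches are descriptions of letters, not of bound sites. Windows were found for 26 of the 30 members.

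Neither class IIb gene nor the class IV gene was called. Hdac6, a cytoplasmic class IIb enzyme that deacetylates tubulin, read 23.0, 22.0 and 21.6 CPM in the WT libraries, against 17.3, 20.03 and 16.9 in the cKO libraries. The groups did not overlap, at -0.30 on the log2 scale (edgeR adjusted p = 0.0928), and the gene was called without cKO replicate 2 (-0.38, edgeR adjusted p = 0.00805). Hdac10, the polyamine deacetylase, read 18.7, 20.9 and 19.4 CPM in the WT libraries, against 20.4, 22.3 and 21.1 in the cKO libraries, which overlap. Hdac11, the single class IV gene, had a log2 fold change of 0.14 with all libraries and -0.35 without cKO replicate 2 (edgeR adjusted p = 0.0527), where it read 14.2 CPM against a mean of 6.41 CPM in the other cKO libraries. For Hdac11, 17.9% of exon bases overlap antisense genes.

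Sirtuin transcripts fell in sum, from 81.5 to 85.1 CPM per kilobase in WT to 47.1 to 51.8 in cKO libraries, and Sirt2 made up most of that level. Of the 7 genes, 2 were called lower and 0 higher, against 10.3% and 8.55% of all genes tested. Sirt2, an NAD-dependent deacetylase of tubulin and histone H4 that is abundant in myelinating glia (ENSMUSG00000015149, chromosome 7, 28766735 to 28788661), read 271, 283 and 291 CPM in the WT libraries, against 139.5, 121 and 142 in the cKO libraries. No cKO library came near the WT range, and the gene fell 2.102-fold (log2 -1.07, SE 0.10, edgeR adjusted p = 0.00123). Leaving out each library in turn moved its log2 fold change only between -1.12 and -1.002. Beside it, 5 of 7 Schwann cell markers fell and 0 rose, and their summed level was 2943 to 3114 CPM in WT and 998 to 1648 CPM in cKO. Among these markers S100b had a log2 fold change of -2.41 and Sox10 -0.94, and the 2 not called were Erbb3 (-0.57) and Cdh19 (0.07). No marker was at 0. The part of Schwann cell number or state in the fall of Sirt2 was not tested.

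Sirt3, a mitochondrial deacetylase (ENSMUSG00000025486, chromosome 7, 140863666 to 140882309), read 19.1, 19.5 and 18.3 CPM in the WT libraries, against 12.4, 14.2 and 12.7 in the cKO libraries. The groups did not overlap, and Sirt3 fell 1.45-fold (log2 -0.54, SE 0.10, edgeR adjusted p = 0.0135). Of its exon bases, 12.7% overlap Psmd13 and Ric8a on the opposite strand, which the counting cannot separate. Sirt1, a nuclear deacetylase of histones and transcription factors, read 41.6, 39.4 and 43.9 CPM in the WT libraries, against 39.9, 27.5 and 33.6 in the cKO libraries. Its groups overlapped through cKO replicate 1, at -0.31 on the log2 scale (edgeR adjusted p = 0.178). The nuclear sirtuin gene Sirt6 and the nucleolar Sirt7 had -0.13 and -0.12. Sirt4 and Sirt5, which encode mitochondrial enzymes, read highest in cKO replicate 2, at 1.62 and 1.65 times the mean of the other cKO libraries. Their log2 fold changes were -0.09 and 0.19 with all libraries and -0.35 and -0.09 without that library, none of them called.

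**Figure D3:**
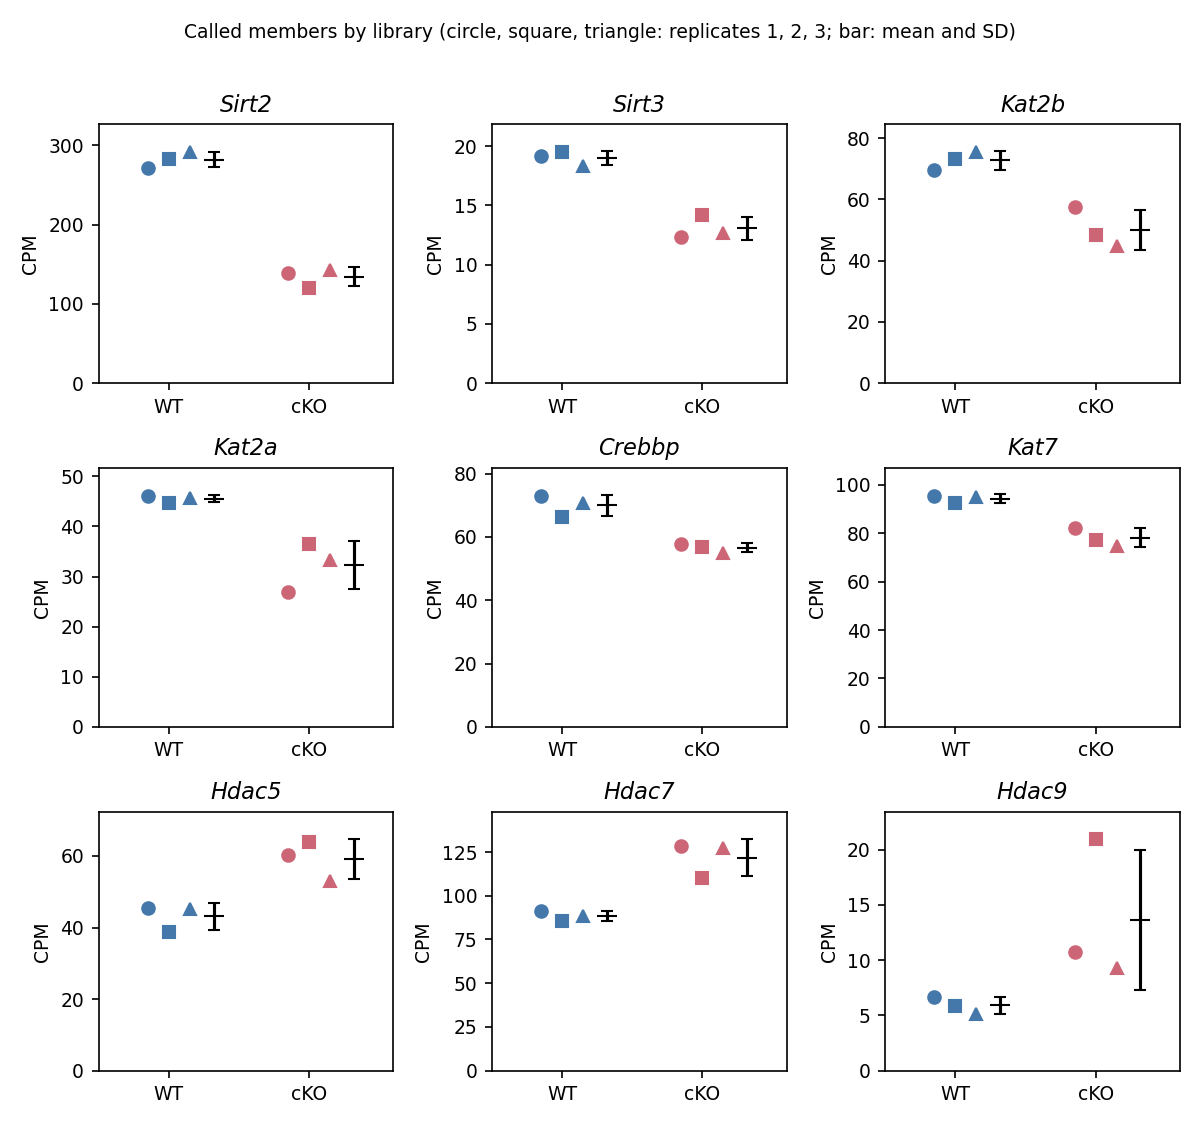
CPM of the 9 called members in each library, with WT in blue, cKO in red, replicates 1, 2 and 3 as circle, square and triangle, and the mean and SD (n = 3) beside them; each vertical axis starts at 0. In every panel the groups are separate, and Hdac9 shows cKO replicate 2 at 20.9 CPM above the other cKO libraries.

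Among 8 acetyltransferase genes 4 fell and 0 rose, against 10.3% and 8.55% of all genes tested, and the class median was -0.27 (log2). All cKO libraries lay below all WT libraries for 5 of the 8, against 21.7% of all genes. The class counts were not tested against these shares. No call of this class held when any 1 WT library was left out. The summed level of the class was 74.8 to 77.0 CPM per kilobase in WT and 60.3 to 63.7 in cKO. Kat2a (GCN5) and Kat2b (PCAF) are alternative catalytic subunits of the SAGA and ATAC co-activator complexes and acetylate histone H3 at lysine 9. Kat2b (ENSMUSG00000000708, chromosome 17, 53566861 to 53672720) read 69.5, 73.1 and 75.4 CPM in the WT libraries, against 57.4, 48.3 and 44.7 in the cKO libraries. It fell 1.45-fold (log2 -0.54, SE 0.11, edgeR adjusted p = 0.0177), and 7.28% of its transcript words also occur in Kat2b-ps. Kat2a (ENSMUSG00000020918, chromosome 11, 100704746 to 100712465) read 46.1, 44.8 and 45.6 CPM in the WT libraries, against 27.0, 36.6 and 33.3 in the cKO libraries. This was a 1.41-fold fall (log2 -0.50, SE 0.12, edgeR adjusted p = 0.0330), in which the 3 WT libraries agreed within 0.692 CPM (SD) and the cKO libraries spread by 4.86 CPM (SD).

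The paralogous co-activators Crebbp (CBP) and Ep300 (p300), which acetylate histone H3 at lysine 27 at enhancers, had similar values. Crebbp (ENSMUSG00000022521, chromosome 16, 4081328 to 4213997) read 73.0, 66.4 and 70.7 CPM in the WT libraries, against 57.7, 56.9 and 55.0 in the cKO libraries, and fell 1.24-fold (log2 -0.31, SE 0.08, edgeR adjusted p = 0.0339). Ep300 read 87.5, 77.1 and 77.7 CPM in the WT libraries, against 66.9, 66.3 and 66.7 in the cKO libraries. Its groups were separate too, but at a log2 fold change of -0.28 it missed the threshold (edgeR adjusted p = 0.0562). It was called with DESeq2 (adjusted p = 0.0445) and without cKO replicate 2 (edgeR adjusted p = 0.0198). A difference between genotypes in the ratio of Ep300 over Crebbp could not be shown with these libraries. The log2 ratio was 0.20 ± 0.06 in WT and 0.23 ± 0.04 in cKO (SD, n = 3 each, 2-sided exact permutation p = 0.5, smallest possible 0.1).

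In the MYST family Kat7 (HBO1), which acetylates histone H3 at lysine 14 and histone H4 (ENSMUSG00000038909, chromosome 11, 95274259 to 95310246), read 95.5, 92.3 and 95.1 CPM in the WT libraries, against 82.3, 77.4 and 74.7 in the cKO libraries. The groups were separate, at a 1.21-fold fall close to the threshold (log2 -0.27, SE 0.08, edgeR adjusted p = 0.0492). With no low-count filter the calls of Kat7 and Crebbp were lost. The other MYST genes were not called, with log2 fold changes of -0.09 for Kat6a (MOZ), -0.12 for Kat6b (MORF) and 0.05 for Kat8 (MOF), the enzyme of histone H4 lysine 16.

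Both BET reader genes, whose proteins bind acetylated histones through paired bromodomains, were not called. Brd2 had a log2 fold change of 0.07 (95% interval -0.14 to 0.27) and Brd3 0.15 (-0.16 to 0.47), and Brd3 was -0.01 without cKO replicate 2. Sin3a, a scaffold for HDAC1 and HDAC2, had -0.08 (-0.25 to 0.10). Ncor1, which anchors HDAC3, had -0.10 (-0.42 to 0.23), and without cKO replicate 2 it was -0.25 and called (edgeR adjusted p = 0.0196). In cKO replicate 2 Brd3 and Ncor1 each read 1.35 times the mean of the other cKO libraries. Neither readers nor scaffolds had a gene with an unadjusted p below 0.05.

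**Figure D4:**
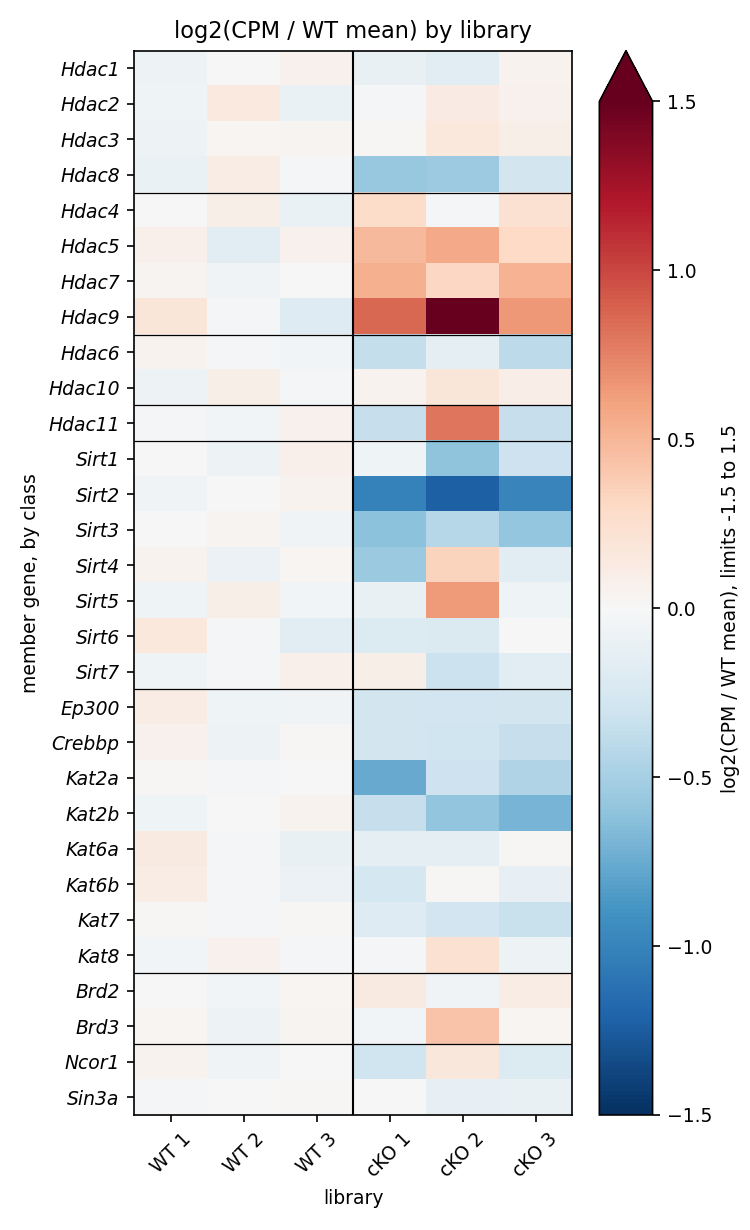
Log2 of each member's CPM over its WT mean (colour, limits -1.5 to 1.5) in the 6 libraries, with genes in rows by class and libraries in columns. Sirt2 is blue and Hdac5, Hdac7 and Hdac9 are red in all cKO columns, while Hdac11, Sirt4 and Sirt5 are red in cKO replicate 2 alone among the cKO columns.

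The library cKO replicate 2 was the highest of the 6 for 10 members and the lowest for 8, and over all genes tested it was the highest for 27.2% and the lowest for 28.5%. The members that stood out in it, Hdac11, Hdac9, Sirt5, Sirt4, Brd3 and Ncor1, and in the other direction Sirt1, at 0.747 times the mean of the other cKO libraries, were singled out after their values were seen. The part of muscle RNA in these values was not tested. The sum of 7 erythroid markers was above the WT range in every cKO library, at 21868, 8779 and 6745 CPM. In cKO replicate 1, where that sum was highest, 8 of the 30 members were lowest and 4 highest. Over all genes tested the shares were 14.3% and 17.5%. Kat2a, 1 of the members lowest there, was singled out after its values were seen. Without cKO replicate 1 the log2 fold change of Kat2a was -0.38 (edgeR adjusted p = 0.0400). The part of erythroid RNA in these values was not tested.

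Ratios between close paralogues, which do not depend on depth, were compared for 6 pairs. With 3 libraries against 3 the exact permutation test cannot go below p = 0.1, so no pair could be called. The largest difference was in Hdac4 over Hdac5, whose log2 ratio was 0.30 ± 0.21 in WT and 0.01 ± 0.27 in cKO (SD, n = 3 each, 2-sided exact permutation p = 0.2). The log2 ratio of Hdac1 over Hdac2 was -2.30 ± 0.16 in WT and -2.44 ± 0.15 in cKO (SD, n = 3 each, 2-sided exact permutation p = 0.4). For Kat2a over Kat2b, Kat6a over Kat6b and Brd2 over Brd3 the differences between groups were 0.04, 0.03 and -0.07, each smaller than the SD of the cKO libraries. Adjusted over the 6 pairs every p was 1.

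Other genes of the pathway were taken from lists chosen with earlier results of these data known. These lists hold 119 genes, all tested. Among them 18 fell and 3 rose, and the median over the 119 was -0.12 (log2). These 21 calls of 119 are a share near the 18.8% called over all genes (10.3% lower, 8.55% higher), so the total is no result about these lists, and the counts of the single lists were not tested against that background. Of 36 partner subunits of acetyltransferase complexes 5 fell and 1 rose (median -0.16). Usp22, the ubiquitin protease of SAGA, read 184, 178 and 179 CPM in the WT libraries, against 96.7, 91.2 and 101 in the cKO libraries, a log2 fold change of -0.90 (SE 0.08, edgeR adjusted p = 0.0011). Its groups were far apart, and it was called whichever of the 6 libraries was left out. Tada2b, an adaptor of the KAT2 enzymes in SAGA, had -0.68, and Msl1, a scaffold for KAT8, had -0.42, both called. The 3 other calls of this list were named after their values were seen: the adaptor Tada2a (-0.43) and the SAGA subunit Atxn7 (-0.40) were lower and the SAGA subunit Supt3 (0.49) was higher. Leaving out any 1 WT library removed these 5 calls, except that Tada2a kept its call without WT replicate 1.

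Of 25 other acetyl-lysine readers 8 fell and 0 rose (median -0.18). Over all genes tested 10.3% were called lower and 8.55% higher, and no list count here was tested against these shares. Baz2a, a bromodomain subunit of the nucleolar remodelling complex, read 105, 90.4 and 98.6 CPM in the WT libraries, against 70.7, 63.4 and 59.8 in the cKO libraries, or -0.60 on the log2 scale (edgeR adjusted p = 0.00863). All cKO libraries lay below WT, and the gene was called whichever of the 6 libraries was left out. Trim33 (-0.47) and Brd8 (-0.41), a bromodomain subunit of the TIP60 complex, were also called and lost their calls without any 1 WT library. Of the 8 reader calls only 1, that of Baz2a, held in each fit without a WT library. Of 35 partner subunits of deacetylase complexes 3 fell and 0 rose (median -0.05): Mta2 of NuRD (-0.44), Rcor3 of the CoREST family (-0.41) and the SIN3 subunit Arid4b (-0.30). Leaving out any 1 WT library removed these 3 calls. The 9 other acetyltransferase genes gave 0 calls with edgeR and 1 with DESeq2, and 3 had an unadjusted p below 0.05.

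Genes that supply acetyl-CoA and NAD went both ways, with 2 of 14 lower and 2 higher, against 10.3% and 8.55% of all genes tested. The 2 higher were Nmnat2 and the nicotinic acid enzyme gene Naprt (0.61). Naprt was named after its values were seen. Its call held only without cKO replicate 2 and was lost in the other 5 fits with a library left out. Acly, which makes acetyl-CoA from citrate for both lipid synthesis and histone acetylation, read 246, 220.4 and 219 CPM in the WT libraries, against 133, 118 and 135 in the cKO libraries (log2 -0.83, SE 0.10, edgeR adjusted p = 0.00264). Slc25a1, the mitochondrial citrate carrier, had a log2 fold change of -1.06. Nmnat2, an NAD-synthesising enzyme of axons, read 10.5, 10.6 and 8.84 CPM in the WT libraries, against 46.5, 22.7 and 38.9 in the cKO libraries, and rose 1.86 on the log2 scale (edgeR adjusted p = 0.00598). The groups of Acly, Slc25a1 and Nmnat2 were separate, and they were called whichever of the 6 libraries was left out. Beside Nmnat2, 2 of 5 neuron markers rose, Tubb3 and Isl1, while Snap25, Rbfox3 and Elavl4 were not called. The sum of the 5 was 6.86 to 8.62 CPM in WT and 13.4 to 36.5 CPM in cKO. Tubb3 made up most of it, with means of 5.05 CPM in WT and 21.5 CPM in cKO, and Snap25 had a log2 fold change of 0.05. The part of these transcripts in the result was not tested.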

How the data were processed

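RNA of sciatic nerve was sequenced in 6 libraries, grouped and numbered by their titles. The authors deposited raw counts of fragments per gene, made per the file headers with featureCounts 1.6.1 on exons of Ensembl GRCm38 release 95 (both ends aligned, minimum mapping quality 20, strand not used). Subread 2.0 and DESeq2 1.3 appear in the submitters' processing notes, with no role stated. Symbols came from a gene-name table that matched 54723 of 54838 gene IDs, with RefSeq synonyms for listed names it lacked.

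Counts were filtered with filterByExpr (minimum count 10), TMM-normalised and tested with edgeR 4.0.16 in R 4.3.3 (robust quasi-likelihood F test, 2-sided, 4 residual degrees of freedom), with p-values Benjamini-Hochberg adjusted over 18775 genes. The method was run on simulated data without an outlying library and with fold changes larger than those of most called members. That run says nothing about smaller changes. Members, lists and the rule for named genes (all called members, the next 6 by p, up to 3 called genes a partner list) were chosen with earlier results of these data known. No pair of libraries within a group matched to within counting error (chi-square over its degrees of freedom, 8.26 to 311.6). Nothing in the labels says that libraries are separate animals, so p-values measure the spread between libraries, which may be technical. Shared sequence was checked with 50-base words of GENCODE transcripts. Paralogue ratios used log2(CPM + 0.5). Alternatives were DESeq2 1.42.0, its size factors in edgeR, no filter, a replicate block and leaving out each library. A marker of the Schwann cell list is not reported here and was left out of its counts and sums.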

Additional observations from a re-analysis of the deposited data

How the results depend on the processing

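The number of members called, 9 (6 lower, 3 higher), was also 9 with DESeq2 size factors, 11 with the DESeq2 test and 6 with no low-count filter. Over all genes, calls numbered 3518 of 18775, 4452 of 20217 and 3491 of 34828 in these fits. With the main settings they numbered 3534 of 18775. In fits that left out a library the number of members called ran from 1 to 14 (lower 1 to 10, higher 0 to 4). Calls over all genes ran there from 1246 to 6823 (lower 790 to 3398, higher 449 to 3425). Calls among the 119 partner genes, 21 with all libraries, ran from 5 to 38 (lower 4 to 33, higher 1 to 5). Every such fit has fewer samples, whichever group loses the library, and the cause of the differences between these fits was not tested. There was no sign that replicate numbers pair the libraries. Same-numbered deviations from the group means correlated at -0.22, -0.23 and -0.08, and no library correlated best with its own number. With so few libraries this check cannot exclude pairing. With the number as a replicate block, 1 member was called (Sirt2; 1 lower, 0 higher), 1852 genes in all (1108 lower, 744 higher) and 7 partner genes (6 lower, 1 higher), against 3534 genes without it. Direction reversed in leave-one-out fits for members not called: Sirt4 ranged from -0.35 to 0.10, Hdac11 from -0.35 to 0.33, Sirt5 from -0.0901 to 0.32, Kat8 from -0.053 to 0.10 and Brd3 from -0.01 to 0.24 (log2 fold change). The group difference in log2 ratio also changed sign without 1 library for Ep300/Crebbp (-0.0024 to 0.060) and Brd2/Brd3 (-0.20 to 0.13). It did so too for Kat2a/Kat2b (-0.077 to 0.26, with -0.065 without cKO replicate 3). The same held for Kat6a/Kat6b (-0.024 to 0.13, with -0.0071 without cKO replicate 1). Without cKO replicate 1 the groups did not overlap for Kat2a/Kat2b (difference 0.26). Without cKO replicate 2 they did not overlap for Kat6a/Kat6b and Brd2/Brd3 (difference 0.13 each). For Ep300/Crebbp the groups overlapped in every fit. At this depth of 31404107 counts or more, every member had at least 189 counts in each library.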
